A study of Mus musculus with 15 samples.

Results

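The genes described here are 35 digestive enzymes and other secretory products of the pancreatic acinar cell, taken by name from a list and measured by microarray in whole pancreas of male C57BL/6J mice. Probes were assigned through the RefSeq accession that each carries. Of the 35 genes, 31 had a probe and all 31 were measured, among 17338 genes tested in the series. No probe was matched to Amy2b, Prss3, Try10 or Ctrc, which were not analysed here. Of the 31 measured genes, 30 were well above background on all 15 arrays, and Dnase1 on 13.

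There were 4 groups, each array holding Cy3-labelled RNA of 1 animal: transgenic (TG) mice given cerulein (4 arrays), TG mice given saline (3 arrays), wild type (WT) mice given cerulein (4 arrays) and WT mice given saline (4 arrays). All animals had fasted for 18 h and received a single intraperitoneal injection. The dose of cerulein, an analogue of cholecystokinin that overstimulates acinar cells and causes acute pancreatitis in rodents, was 50 µg/kg, and the pancreas was removed 3 h afterwards. The saline groups carry the time label 0 h, although the treatment protocol gives the same 3 h for saline. The labels call the mice only transgenic, and the series title ties the study to betacellulin, an ERBB receptor ligand encoded by Btc. Neither the promoter of the transgene nor the ages are given in the sources used here. Btc differed by 0.55 ± 0.48 (log2, SE) between TG and WT saline mice and by 0.49 ± 0.45 between TG and WT cerulein mice, with adjusted p = 1.00 and 0.838. Whether its probe lies within the transgene is not known, so the value does not check the labels.

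Acinar cells make up most of the exocrine pancreas and devote most of their protein synthesis to enzymes and zymogens. These are translocated into the endoplasmic reticulum, packed into zymogen granules and released when cholecystokinin or acetylcholine raises calcium. Their genes are driven by a small set of acinar transcription factors, of which the PTF1 complex (PTF1A, an E protein and RBPJL) binds a bipartite element made of an E-box and a TC-box. NR5A2, GATA factors and MIST1 (Bhlha15) act beside it. In whole tissue, fewer acinar cells and less RNA per cell cannot be told apart.

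Letter matches to the E-box and TC-box of the acinar control element were found close together in some member promoters and not in others. Promoters from RefSeq (mouse build GRCm38.p6, 250 bases before to 50 bases after the start) were found for 25 of the 31 measured genes. Cela1 encodes elastase 1 (chr15:100687871-100688170, minus strand), Ctrb1 encodes chymotrypsinogen B (chr8:111690961-111691260, minus strand), Cpa1 encodes carboxypeptidase A1 (chr6:30638968-30639267, plus strand) and Rnase1 encodes pancreatic ribonuclease (chr14:51146718-51147017, minus strand). They are printed 5′ to 3′ along the gene. Capitals mark an E-box and a TC-box that lie together within 30 bases, and TATAAA. The first 3 hold such a pair, and Rnase1 is shown because the results below turn on it. A link between its promoter and its values was not tested. The set to print was chosen after the matches were seen.
Cela1: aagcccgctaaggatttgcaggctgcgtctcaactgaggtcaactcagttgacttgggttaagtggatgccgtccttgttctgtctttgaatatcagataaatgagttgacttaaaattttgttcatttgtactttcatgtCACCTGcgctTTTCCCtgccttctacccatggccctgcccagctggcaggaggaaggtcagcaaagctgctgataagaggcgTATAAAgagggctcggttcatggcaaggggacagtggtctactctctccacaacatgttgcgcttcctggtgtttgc
Ctrb1: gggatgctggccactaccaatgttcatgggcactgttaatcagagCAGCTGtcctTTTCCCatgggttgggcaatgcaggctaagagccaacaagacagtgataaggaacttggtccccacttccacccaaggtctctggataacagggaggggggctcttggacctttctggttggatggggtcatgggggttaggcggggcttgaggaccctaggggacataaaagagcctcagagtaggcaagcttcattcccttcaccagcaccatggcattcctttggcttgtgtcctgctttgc
Cpa1: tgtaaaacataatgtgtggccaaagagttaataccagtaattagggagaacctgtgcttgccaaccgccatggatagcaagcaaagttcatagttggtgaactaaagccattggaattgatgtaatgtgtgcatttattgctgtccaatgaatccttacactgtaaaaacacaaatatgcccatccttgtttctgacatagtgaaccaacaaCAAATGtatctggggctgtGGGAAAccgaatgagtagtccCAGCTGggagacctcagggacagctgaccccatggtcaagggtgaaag
Rnase1: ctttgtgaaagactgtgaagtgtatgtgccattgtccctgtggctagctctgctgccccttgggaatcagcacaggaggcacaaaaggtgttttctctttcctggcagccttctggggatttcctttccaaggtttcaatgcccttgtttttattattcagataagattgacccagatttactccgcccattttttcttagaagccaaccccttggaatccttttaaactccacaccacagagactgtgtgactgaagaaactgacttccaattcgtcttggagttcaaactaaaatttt

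In all, 6 motifs and 1 pair of motifs were searched in these windows, on both strands except for TATAAA, which was read along the gene only. CANNTG, the E-box, was present in 84% of the 25 member promoters and in 72.1% of 27025 promoters of all genes. TTTCCC, the core of the TC-box, was present in 32% and 25.2%, and the pair within 30 bases in 20% (Cel, Cela1, Cpa1, Ctrb1 and Prss1) and 4.23%. AAGGTCA, bound by NR5A2, occurred in 16% of member promoters and 4.66% of all, AGATAA, bound by factors of the GATA family, in 36% and 11.4%, and TATAAA in 32% and 8.88%. TGACGT, the core of the cAMP response element, occurred in 0% and 7.64%. The Rnase1 window held neither CANNTG nor TTTCCC. These are matches of letters in a fixed window and say nothing of binding.

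The mean raw signal over these genes varied little between arrays, while single genes varied more. The mean log2 signal of the 31 genes, before any scaling between arrays, was 17.74 ± 0.08 in TG cerulein mice and 17.66 ± 0.05 in TG saline mice, and 17.70 ± 0.02 in WT cerulein mice and 17.69 ± 0.05 in WT saline mice (SD). Over the 15 arrays it spanned 0.24 log2 units, from 17.60 to 17.84. The 75th percentile of signal on the same arrays, to which arrays of this type are usually scaled, spanned 1.80 log2 units. Its log2 value averaged 8.44 ± 0.43 in TG cerulein mice and 7.73 ± 0.36 in TG saline mice, and 8.29 ± 0.46 in WT cerulein mice and 7.53 ± 0.30 in WT saline mice.

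Scaled to that percentile, the secretory genes had lower means after cerulein. Their mean was 9.30 ± 0.38 (log2 over the 75th percentile) in TG cerulein mice and 9.93 ± 0.34 in TG saline mice, and 9.42 ± 0.48 in WT cerulein mice and 10.17 ± 0.28 in WT saline mice. In WT mice the 4 cerulein arrays stood at 9.46, 10.07, 9.02 and 9.10, against 9.79, 10.40, 10.37 and 10.11 on the 4 saline arrays. The cerulein array of replicate 10 lay within the saline range, so the groups overlapped. In TG mice the cerulein arrays stood at 9.28, 9.41, 9.70 and 8.79, against 9.54, 10.11 and 10.15 on the saline arrays, again with overlap. Without any scaling the median difference of the 31 genes, cerulein minus saline, was 0.03 in TG and -0.02 in WT mice. Relative to the percentile it was -0.68 and -0.78. The lower median after cerulein was thus nearly absent without scaling in both genotypes, and in TG mice the direction turned.

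**Figure D1:**
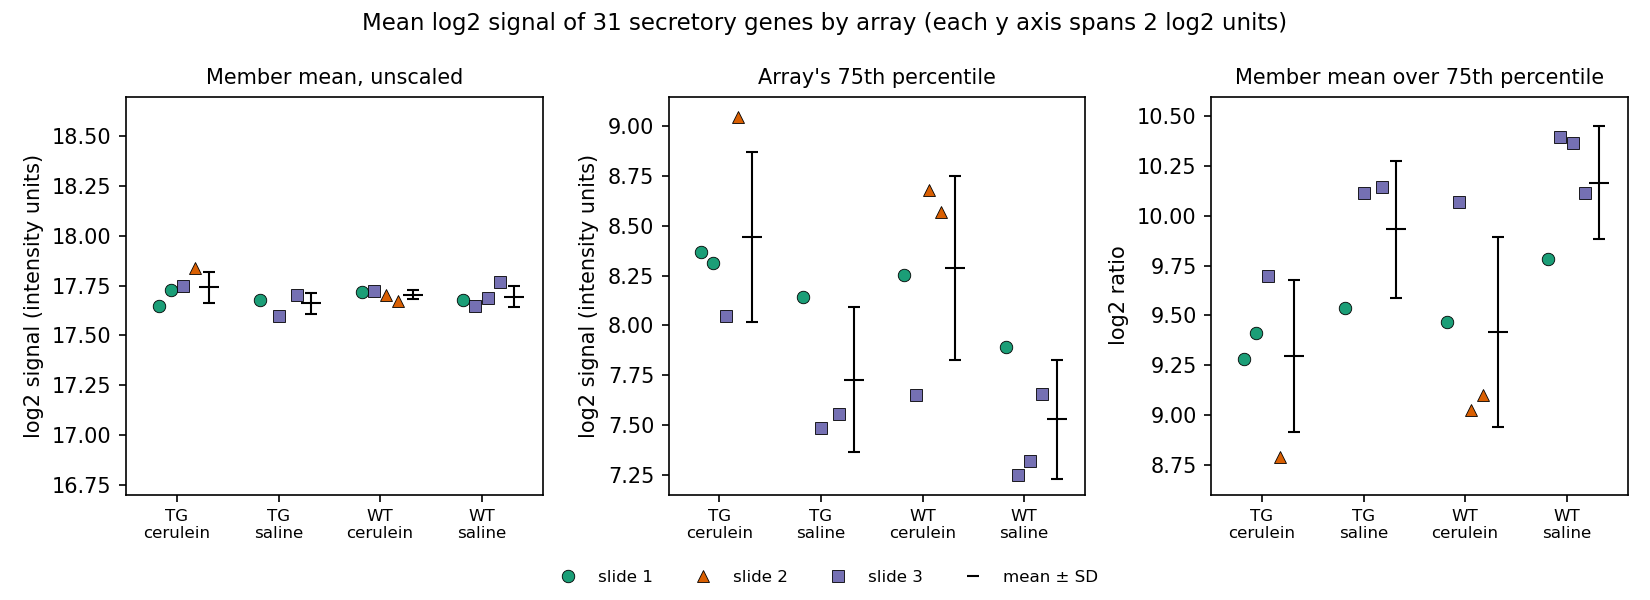
Mean log2 signal of the 31 secretory genes on each array before scaling (left), the log2 75th percentile of the same array (middle) and the first minus the second (right), in 4 groups, with points marked by slide and the mean ± SD beside them. The unscaled mean stays between 17.60 and 17.84, while the percentile differs between slides and treatments.

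The arrays lay on 3 slides, and slide and treatment were partly confounded: slide 2 held 3 arrays, all from cerulein mice. Slides accounted for 85.8% of the variance of the scaled member mean, treatments for 52.3% and genotypes for 5.1%, shares that overlap because the design is not balanced. Within slide 1 the 75th percentile was 0.20 (log2) higher after cerulein in TG mice and 0.36 higher in WT mice, and within slide 3 it was 0.53 and 0.24 higher. Over all slides these differences were 0.72 in TG and 0.76 in WT mice. The unscaled member mean differed by 0.08 in TG and by 0.01 in WT mice.

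Most of these probes were very bright. Of the 31 genes, 24 reached 25% of the scanner ceiling on at least 1 array and 19 reached 50%. Cela3b, which encodes elastase 3B, ranged from 68.7% to 87.9% of the ceiling, and Amy2a5, pancreatic amylase, from 63.5% to 79.5%. Rnase1 ranged from 18.1% to 29.3%, Tff2 (trefoil factor 2) from 9.07% to 15.6% and Cuzd1, a zymogen granule membrane protein, from 3.07% to 6.87%. No probe was recorded as saturated. Whether brightness compresses differences of these probes was not tested, and a check with the 7 dimmer genes as the centre is given with Rnase1.

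**Figure D2:**
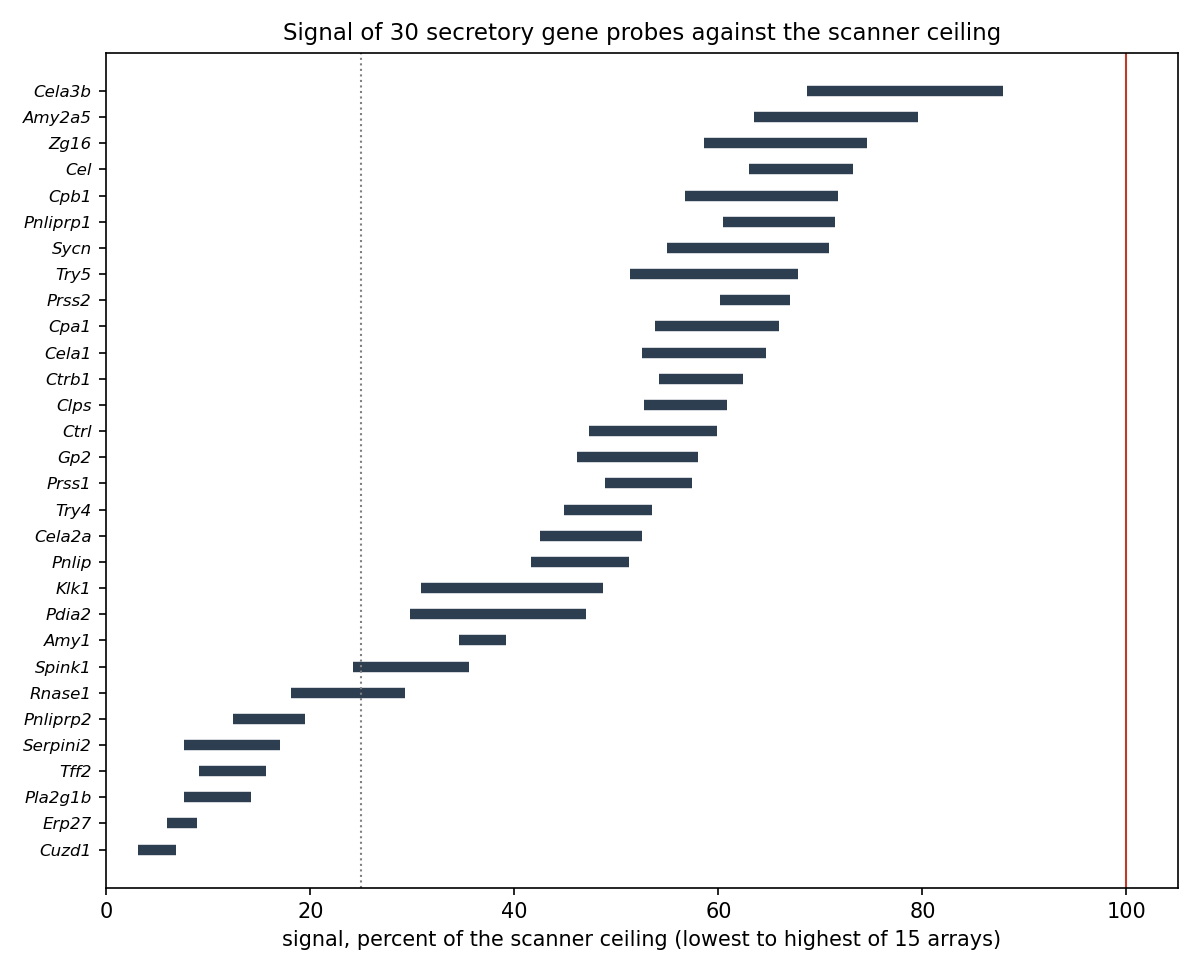
Lowest to highest signal over 15 arrays, as a percent of the scanner ceiling (x axis), for 30 secretory genes (Dnase1, which is far dimmer, is left out). The dotted line marks 25% and the solid line the ceiling, and Cela3b comes closest to it at 87.9%.

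Each gene was also read relative to the mean of the 31 on the same array. Relative to that mean the median of all genes was 0.58 in TG and 0.69 in WT mice (cerulein minus saline), so values on this scale compare each gene with the secretory genes and not with the whole array. The median residual SD within groups was 0.099 log2 units over the 31 genes, against 0.40 over all genes on the same scale, and 0.41 and 0.42 on the percentile scale. The mean is built from the same genes, which lowers the first of these. On the percentile scale the median correlation between pairs of members across arrays was 0.96 over 465 pairs, which share the percentile of each array. The 24 genes that reached 25% of the ceiling had a median correlation of 0.98 and a median residual SD of 0.090 relative to the member mean, against 0.75 and 0.20 for the 7 dimmer genes. The lowest correlation over all pairs, -0.58, involved Dnase1.

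The first comparison asks how cerulein changed these transcripts in WT mice. Relative to the percentile, Rnase1 fell by 1.21 ± 0.28 (log2, SE) and Tff2 by 1.06 ± 0.31, with adjusted p = 0.0107 and 0.0344 from limma. With slide as a block Rnase1 differed by -0.75 and Tff2 by -0.60 (adjusted p = 0.0891), with quantile normalization by -0.66 and -0.55, and without scaling by -0.45 and -0.30 (adjusted p = 0.206 for Tff2). Tff2 encodes a secreted trefoil peptide that protects mucosal surfaces. They were the only 2 of 31 members called, all lower, where 8.35% of all genes were called lower and 14% in either direction. The median of the 31 members was -0.78 and that of all genes -0.06. At an unadjusted p below 0.05 there were 29 of 31 members, against 31.1% of all genes, and 30 of 31 differences were below 0, against 53.7% of all genes. The members share the percentile of each array, so these counts do not come from independent genes. The groups of 3 members did not overlap (Pla2g1b, Rnase1 and Tff2), against 17.4% of all genes. Fitting slide as a block gave a median of -0.24 and 1 call, Rnase1, where 21.6% of all genes were called in either direction. Medians of -0.31 and -0.19 were found within slides 1 and 3. Without slide 2 no member was called, in a fit with fewer arrays whose share of all genes called is not given here. Leaving out cerulein replicate 10, which lay nearest the saline arrays, raised the count of members called to 29, where 25.6% of all genes were called. Leaving out saline replicate 5 raised it to 10, where 16% were. Replicate 10 was the only WT cerulein array on slide 3, and replicate 5 the only WT saline array on slide 1. Each of these fits thus loses a comparison of WT treatments within a slide, which ties treatment more closely to slide.

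Rnase1, a secreted ribonuclease, had the most negative difference of the 31 in WT mice on both scales. Over the percentile it stood at 8.95, 9.57, 8.42 and 8.92 in WT cerulein mice, against 9.76, 10.33, 10.44 and 10.15 in WT saline mice, and the groups did not overlap. Relative to the member mean it stood at -0.52, -0.50, -0.60 and -0.19 in WT cerulein mice, against -0.02, -0.06, 0.08 and 0.03 in WT saline mice, again with no overlap. The difference was -0.46 ± 0.12 (adjusted p = 0.00944), the only call of 31 on this scale, where 2.07% of all genes were called lower and 30.6% in either direction. Of all genes, 29.1% had groups that did not overlap, and of the members 4 did. Within slides 1 and 3 the differences were -0.49 and -0.52. With slide as a block the difference was -0.49 (adjusted p = 0.0162), where 22.2% of all genes were called in either direction. The call held in all 26 other settings tried, with a difference of -0.57 to -0.39, among them a centre built from the 7 genes under 25% of the ceiling. Those that leave out a TG array keep the WT difference as it is and change only its error.

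Rnase1 did not pass the threshold in TG mice. On the member mean scale it stood at -0.37, -0.36, -0.34 and -0.28 in TG cerulein mice, against -0.19, -0.13 and 0.04 in TG saline mice, so that the groups did not overlap. The difference was -0.24 ± 0.13 (adjusted p = 0.192), with a 95% interval of -0.51 to 0.03. The difference between the TG and WT responses was 0.22 ± 0.17, with a 95% interval of -0.15 to 0.58, so neither equal nor different responses were shown.

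In TG mice no member was called relative to the percentile (14 at an unadjusted p below 0.05, against 21.8% of all genes), where 8.2% of all genes were called. The median of the 31 members was -0.68, and -0.06 for all genes. It was -0.31 with slide as a block, and -0.16 and -0.49 within slides 1 and 3. Ctrl, Cela1 and Cela2a, which encode chymotrypsin-like and elastase zymogens, were the 3 members whose groups did not overlap, against 21.6% of all genes. With slide as a block 8 of 31 members were called, all lower, where a similar share of all genes, 23.5%, was called in either direction. The 8 were Amy1 and Amy2a5 (amylases), Cela3b (elastase), Cpa1 (carboxypeptidase), Rnase1, Sycn (syncollin, a granule protein), and the trypsinogens Try4 and Try5. The slide-adjusted differences of these 8 ran from -0.56 for Rnase1 to -0.36 for Amy1. On the member mean scale none of the 31 was called (26% of all genes were), and 9 had groups that did not overlap, against 32.7% of all genes. Klk1, a tissue kallikrein, had the lowest adjusted p.

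**Figure D3:**
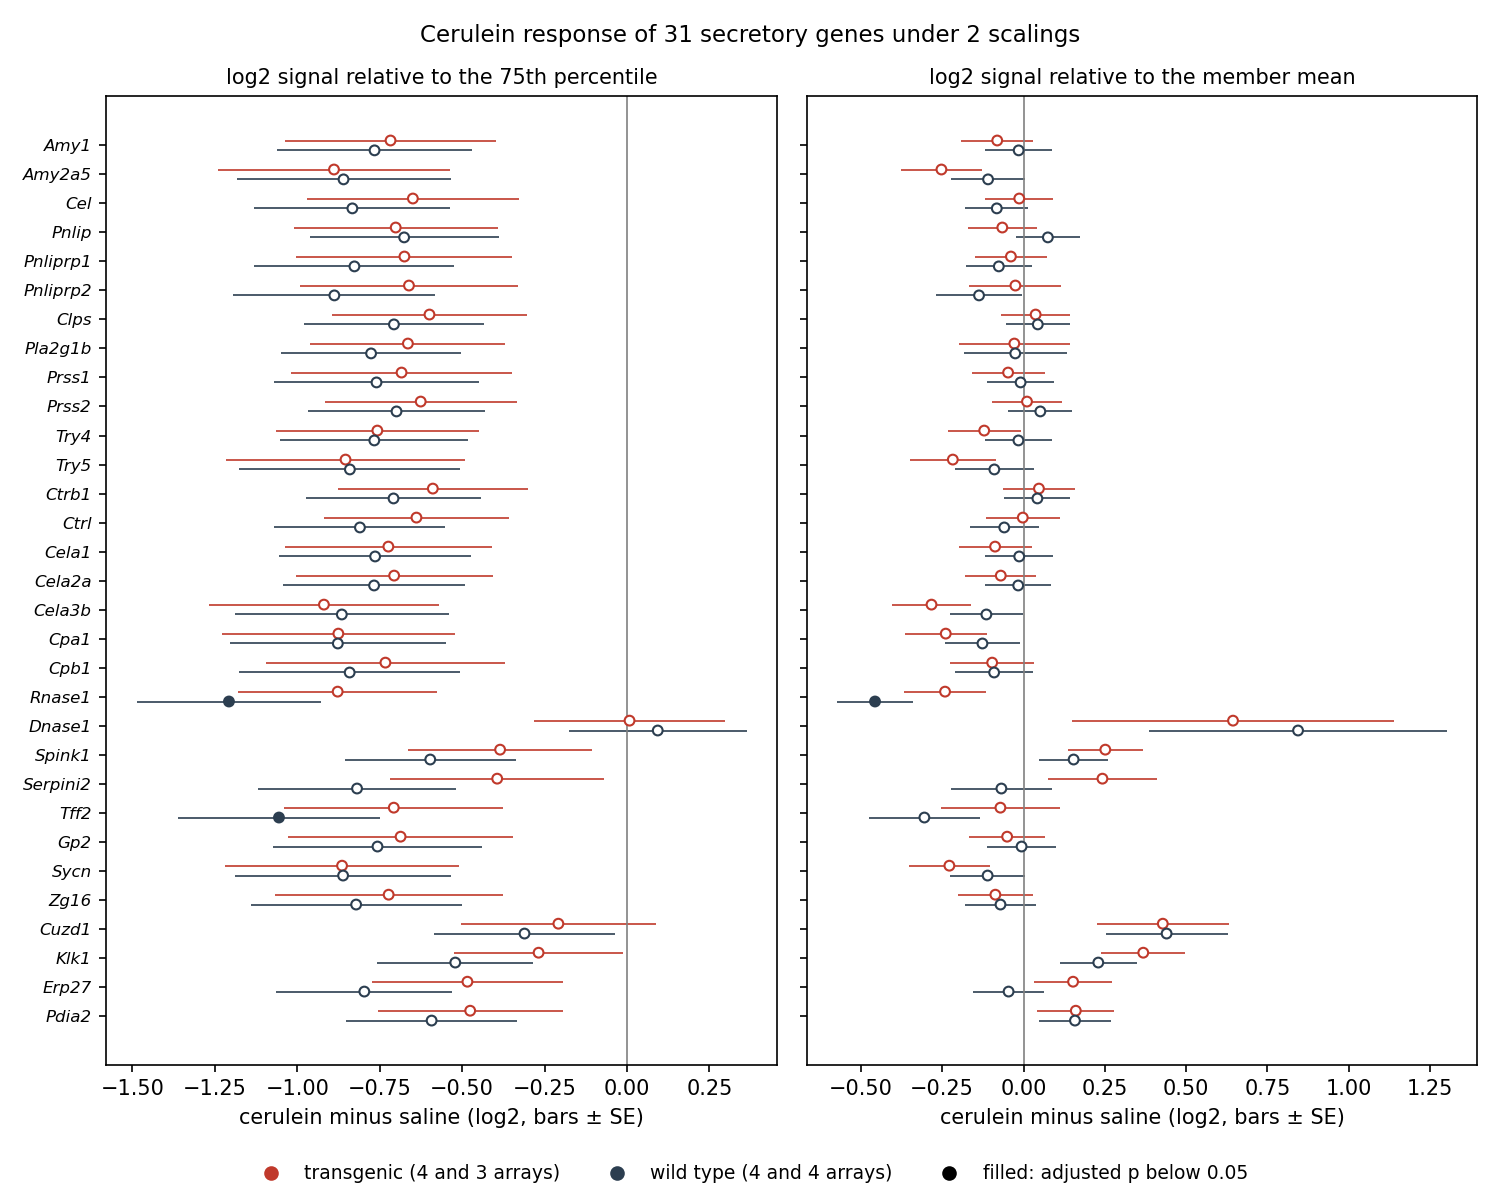
Cerulein minus saline (log2, bars ± SE) of the 31 secretory genes relative to the 75th percentile (left) and relative to the member mean (right), in TG (4 and 3 arrays) and WT mice (4 and 4 arrays), with filled points for adjusted p below 0.05. On the left nearly all members lie between -1.21 and 0, and on the right most lie near 0, with Rnase1 in WT mice lowest and called.

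Medians by role were below 0 on the percentile scale for every role, from -0.80 to -0.39 in TG mice and from -0.86 to -0.56 in WT mice. In TG mice the median difference, cerulein minus saline, was -0.80 for the 2 amylases, -0.66 for the 6 lipases and colipase, -0.72 for the 4 trypsinogens, -0.71 for the 5 chymotrypsinogens and elastases and -0.80 for the 2 carboxypeptidases. In WT mice the same medians were -0.81, -0.80, -0.76, -0.77 and -0.86. With slide as a block they were smaller, at -0.42, -0.30, -0.37, -0.37 and -0.38 in TG and -0.23, -0.27, -0.22, -0.25 and -0.24 in WT mice. Against the member mean, the amylase median was -0.17 in TG and -0.06 in WT mice, the lipase median -0.03 and -0.05, and the trypsinogen median -0.08 and -0.01. The 2 nucleases, Rnase1 and Dnase1, had a median of -0.43 in TG and -0.56 in WT mice over the percentile. These medians join unlike genes, with Rnase1 at -0.88 and -1.21 and the dim Dnase1 at 0.01 and 0.09. The 3 protease inhibitors and trefoil peptide had medians of -0.39 and -0.82. The 5 granule proteins stood at -0.69 and -0.76 and the 2 folding proteins of the endoplasmic reticulum at -0.48 and -0.69. For amylases, lipases, trypsinogens, elastases and carboxypeptidases, none of these differences, on either scale, was called for a single member of these roles, except with slide as a block, where the 6 enzymes named above were called lower in TG mice over the percentile.

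Cela3b and Amy2a5 had the most negative differences relative to the member mean in TG mice, each read from its brightest probe. A second Amy2a5 probe gave -0.12 in TG mice, which lies behind Rnase1, Cpa1, Sycn and Try5. Amy2a5 stood at 1.27, 1.21, 1.42 and 1.15 in TG cerulein mice, against 1.56, 1.47 and 1.52 in TG saline mice, and Cela3b at 1.38, 1.39, 1.57 and 1.24, against 1.71, 1.65 and 1.67. In both, every TG cerulein array lay below every TG saline array. The differences were -0.25 ± 0.12 (adjusted p = 0.167) and -0.28 ± 0.12 (adjusted p = 0.114), and in WT mice -0.11 ± 0.11 for each. In WT cerulein mice Amy2a5 stood at 1.34, 1.52, 1.25 and 1.27, against 1.27, 1.52, 1.55 and 1.45 in WT saline mice, with overlap. Cela3b stood at 1.48, 1.63, 1.42 and 1.39 in WT cerulein mice, against 1.47, 1.69, 1.68 and 1.54 in WT saline mice, also with overlap.

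Tff2, called relative to the percentile in WT mice, was not called relative to the member mean. It stood at -1.10, -1.42, -1.59 and -0.89 in WT cerulein mice, against -0.89, -0.99, -0.85 and -1.05 in WT saline mice, with overlap. The difference was -0.30 ± 0.17 (adjusted p = 0.169). In TG cerulein mice it stood at -1.35, -0.96, -1.12 and -0.95, against -1.29, -0.96 and -0.82 in TG saline mice, again with overlap, and the difference was -0.07 ± 0.18. Its call on the percentile scale held in 15 of 24 other settings. Among these are the fits that leave out a TG array, which keep the WT difference as it is and change only its error.

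Cuzd1 had the second largest positive difference relative to the member mean in both genotypes and did not pass the threshold. In TG cerulein mice it stood at -2.22, -2.70, -2.42 and -2.13, against -2.92, -3.05 and -2.42 in TG saline mice, with overlap. It stood at -2.65, -2.55, -2.16 and -2.44 in WT cerulein mice, against -2.69, -3.03, -2.70 and -3.13 in WT saline mice, and the groups did not overlap. The differences were 0.43 ± 0.20 in TG mice (adjusted p = 0.15) and 0.44 ± 0.19 in WT mice (adjusted p = 0.0904). Over the percentile the Cuzd1 means were lower after cerulein, at 6.93 against 7.14 in TG mice and 6.97 against 7.28 in WT mice.

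Dnase1, a secreted nuclease and by far the dimmest member, had the largest positive difference in both genotypes and was not called. It stood at -12.84, -12.56, -13.08 and -11.68 relative to the member mean in TG cerulein mice, against -12.34, -13.21 and -14.00 in TG saline mice. In WT cerulein mice it stood at -12.33, -12.99, -11.64 and -11.77, against -12.23, -13.60, -13.67 and -12.60 in WT saline mice. The groups overlapped in both genotypes, and its spread was wider than that of the bright members. The 2 arrays on which it was not well above background were TG saline replicate 4 and WT saline replicate 7. Relative to the member mean the differences were 0.64 ± 0.49 in TG and 0.84 ± 0.46 in WT mice. A slide block brought them to 0.12 and 0.08. Over the percentile, without a block, Dnase1 differed by 0.01 in TG and 0.09 in WT mice.

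The other 25 members lay between -0.24 (Cpa1) and 0.37 (Klk1) relative to the member mean in TG mice and between -0.14 (Pnliprp2, a lipase-related protein) and 0.23 (Klk1) in WT mice. Among the lipases, Pnlip, pancreatic triglyceride lipase, differed by -0.07 ± 0.11 in TG and 0.07 ± 0.10 in WT mice, and Clps, its cofactor colipase, by 0.04 ± 0.11 and 0.04 ± 0.10. A second Clps probe gave -0.08 and -0.14. Spink1, which inhibits trypsin, differed by 0.25 ± 0.12 in TG mice (adjusted p = 0.139) and 0.15 ± 0.11 in WT mice, and its TG groups did not overlap. Gp2, the main glycoprotein of the zymogen granule membrane, differed by -0.05 ± 0.12 in TG and -0.01 ± 0.11 in WT mice, but a second probe gave 0.17 and 0.19. For Clps and Gp2 the probes thus disagreed in sign. Zg16, a lectin of the granule matrix, differed by -0.09 ± 0.12 and -0.07 ± 0.11. Of the protein disulfide isomerase family, Pdia2 differed by 0.16 ± 0.12 and 0.16 ± 0.11, and Erp27 by 0.15 ± 0.12 and -0.05 ± 0.11.

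Klk1, Serpini2 and Pla2g1b were singled out after their values were seen. Klk1 stood at 0.85, 0.76, 0.60 and 0.70 relative to the member mean in TG cerulein mice, against 0.55, 0.27 and 0.25 in TG saline mice, with no overlap. The difference was 0.37 ± 0.13 (adjusted p = 0.0516), which was called without TG saline replicate 2 and without WT cerulein replicate 10. In WT mice it was 0.23 ± 0.12 (adjusted p = 0.145). Over the percentile the Klk1 means were lower after cerulein, at 10.02 against 10.29 in TG mice and 10.10 against 10.62 in WT mice. Serpini2 encodes a pancreatic serpin and Pla2g1b the secreted phospholipase A2, and both enter the genotype comparisons.

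**Figure D4:**
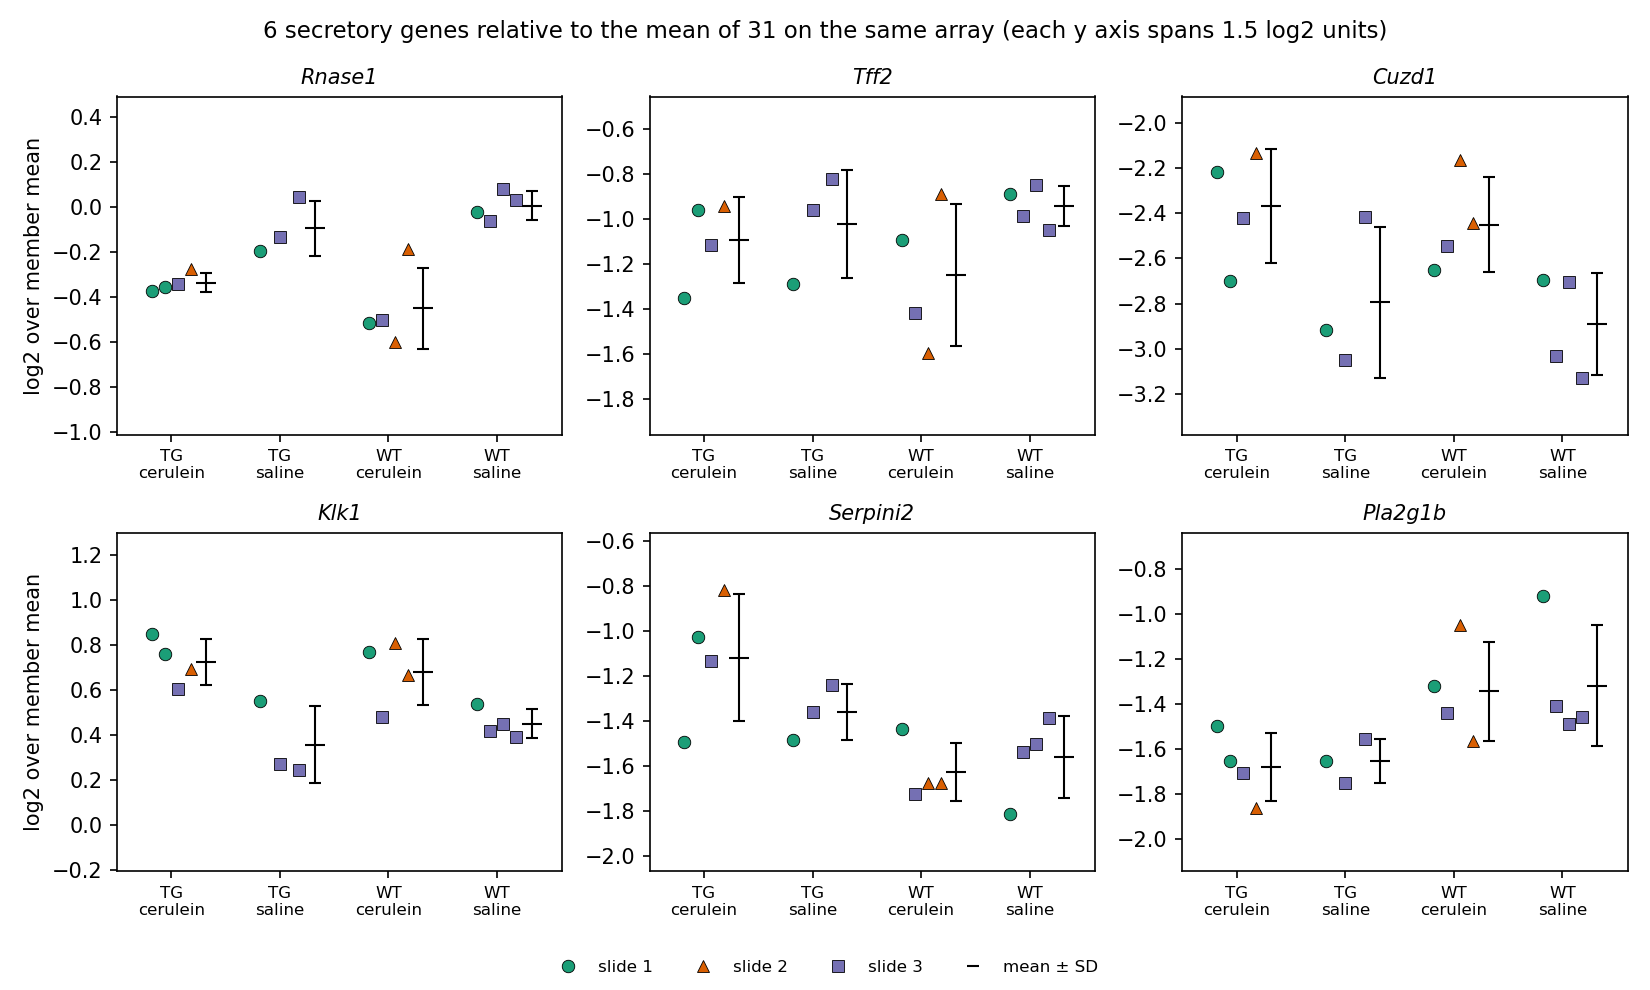
Log2 signal relative to the mean of the 31 members on the same array for 6 genes in 4 groups, with points marked by slide and the mean ± SD. Rnase1 is lower in cerulein than in saline mice of both genotypes, with groups that do not overlap, and the means of Pla2g1b are -1.68 and -1.65 in TG mice and -1.34 and -1.32 in WT mice (cerulein and saline).

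The genotype comparisons ask whether the transgenic pancreas differed in these products. No member was called in TG against WT mice after cerulein or after saline on either scale, where 0.144% and 0.075% of all genes were called relative to the percentile and 1.25% and 0.311% relative to the member mean. No member was called for a difference between the genotypes in the cerulein response, where 0% of all genes were on either scale. At an unadjusted p below 0.05, limma gave 0 members on the percentile scale after cerulein and after saline, against 7.04% and 3.22% of all genes. On the member mean scale it gave 1, Serpini2, after cerulein and 0 after saline, against 20.5% and 11.5% of all genes. On that scale the 95% intervals of the 31 members had a median half-width of 0.26 log2 units after saline and 0.24 after cerulein. A shift shared by all members is removed there. On the percentile scale the median half-widths were 0.67 and 0.62, and the median differences -0.23 after saline and -0.14 after cerulein. Differences were below 0 for 31 of 31 members after saline and 27 after cerulein, against 49.3% and 39.3% of all genes. The members share the percentile of each array, so these signs are not independent of each other. With slide as a block the medians were -0.18 and -0.27. Without any scaling between arrays they were -0.03 after saline and 0.02 after cerulein.

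Serpini2 stood at -1.49, -1.03, -1.13 and -0.82 relative to the member mean in TG cerulein mice, against -1.44, -1.72, -1.67 and -1.67 in WT cerulein mice. The groups overlapped through TG replicate 13. The difference was 0.51 ± 0.15 (adjusted p = 0.107), and without TG cerulein replicate 13 it was 0.63 ± 0.14 and called (adjusted p = 0.0406). Pla2g1b was 0.34 ± 0.16 lower in TG than in WT mice after cerulein (adjusted p = 0.254) and 0.33 ± 0.17 lower after saline (adjusted p = 0.483). After saline it stood at -1.65, -1.75 and -1.56 in TG mice, against -0.92, -1.41, -1.49 and -1.46 in WT mice, with no overlap, as for 3 of the 31 members and 14.9% of all genes. WT saline replicate 5 stood apart from the other 3, and without it the difference after saline was -0.20 ± 0.16. The difference after cerulein was -0.24 without slide 2. After cerulein Cela1 was the 1 member without overlap between TG and WT mice, against 11.6% of all genes.

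Markers of fibroblasts had higher medians in TG than in WT mice. After cerulein 3 of 7 were called higher relative to the percentile, where 0.144% of all genes were called. Their median was 1.91, with summed levels of 6.87 to 7.91 against 5.42 to 6.45 (log2). After saline 0 of 7 were called, where 0.075% of all genes were, with a median of 1.13. With slide as a block 6 were called higher after cerulein and 2 after saline. Without a block, TG minus WT medians after saline and cerulein were also above 0 for, among others, neutrophil (1.20 and 0.79), intestinal epithelium (1.51 and 0.31) and islet markers (0.55 and 0.52), with no call. They were below 0 for adipocyte (-0.26 and -0.18) and macrophage markers (-0.07 and -0.06). No fibroblast marker was below background on every array. Of 8 neutrophil markers 6 were measured and 2 were not above background on any array. In WT mice 2 were called higher after cerulein, and in TG mice 0, where 14% and 8.2% of all genes were called in either direction. Their summed levels were 6.45 to 7.55 in TG cerulein and 7.14 to 7.61 in TG saline mice, and 6.26 to 7.50 in WT cerulein and 6.65 to 7.51 in WT saline mice. Islet markers had medians of -0.47 in TG and -0.69 in WT mice after cerulein (0 and 1 of 9 called, lower), and adipocyte markers -0.63 and -0.84 (0 and 1 of 7 called, lower), against -0.68 and -0.78 for the secretory genes. With slide as a block the islet medians were -0.08 and -0.11 and the adipocyte medians -0.54 and -0.80. Summed levels of intestinal epithelium markers were 2.45 to 4.58 in TG cerulein and 0.82 to 5.35 in TG saline mice, and 0.82 to 2.22 in WT cerulein and 0.14 to 0.99 in WT saline mice. The part of these cells in the values of the secretory genes was not tested.

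Of 19 further secretory genes 11 were on the array, and their median relative to the percentile was -0.70 in TG and -0.79 in WT mice. Amy2a4, a second pancreatic amylase, was called lower in both, by 1.60 ± 0.39 in TG mice (adjusted p = 0.0200) and by 1.93 ± 0.36 in WT mice (adjusted p = 0.00284). Over the percentile Amy2a4 stood at 2.33, 2.91, 2.83 and 2.54 in TG cerulein mice, against 3.57, 4.40 and 4.80 in TG saline mice, and at 1.95, 2.81, 1.28 and 2.18 in WT cerulein mice, against 3.12, 4.36, 4.40 and 4.03 in WT saline mice. The groups did not overlap in either genotype. Relative to the member mean it was also called lower, by 0.97 ± 0.25 in TG and 1.18 ± 0.23 in WT mice. Tmed6, a protein of vesicle transport, was the other gene called lower over the percentile in WT mice, by 0.92 ± 0.28 (adjusted p = 0.0401). Amylase genes are near-identical copies whose probes may share targets, so which amylase changed is uncertain.

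Gm10334, a predicted trypsinogen-like gene, was called higher relative to the member mean in both genotypes, by 2.03 ± 0.55 in TG and 2.20 ± 0.51 in WT mice, and not relative to the percentile, by 1.39 and 1.45. The same caution on shared sequence applies.

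Secretory proteins enter the endoplasmic reticulum through the translocon. Of 17 translocon and signal peptidase genes, 5 were called higher and 1 lower relative to the member mean in TG mice, and 3 higher and 0 lower in WT mice, where 26% and 30.6% of all genes were called. Their medians of 0.30 in TG and 0.09 in WT mice lay below those of all genes, 0.58 and 0.69. Over the percentile 0 were called in TG mice and 1 lower (Ssr2, -0.95) in WT mice, and with slide as a block 3 higher and 1 lower in TG and 0 in WT mice. Sec61a1, which forms the channel, was higher by 1.01 ± 0.18 in TG mice and 0.60 ± 0.16 in WT mice on the member mean scale. Sec63, which helps drive translocation, was higher on that scale by 0.91 ± 0.19 and 0.74 ± 0.17. Srprb, a subunit of the signal recognition particle receptor, was higher on that scale by 1.10 ± 0.20 in TG and 0.54 ± 0.19 in WT mice. In TG mice Sec11a, a signal peptidase subunit, was higher relative to the member mean by 0.79 ± 0.19 and Srpr by 0.40 ± 0.12. Sec61b was lower by 0.50 ± 0.17. The values of Srpr in TG mice, and of Sec61a1 and Srprb in WT mice, lay below the median of all genes on that scale. With slide as a block the calls of Srprb in WT mice and Sec61b in TG mice were lost.

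Of 11 acinar transcription factors, 3 were called higher and 2 lower relative to the member mean in each genotype, where 26% of all genes were called in TG and 30.6% in WT mice. Their medians were 0.21 in TG and 0.02 in WT mice, against 0.58 and 0.69 for all genes. Ptf1a rose by 2.32 ± 0.27 in TG and 1.92 ± 0.25 in WT mice, while its partner Rbpjl fell by 1.09 ± 0.20 and 1.06 ± 0.18. Foxa2 fell by 1.75 ± 0.19 and 1.89 ± 0.18. Tcf12, an E protein, rose by 0.90 ± 0.27 and 0.89 ± 0.25 and was not called over the percentile. Bhlha15 was called lower over the percentile in WT mice, by 1.24 ± 0.39 (adjusted p = 0.0466). With slide as a block neither Bhlha15 nor Tcf12 was called in WT mice on these scales. Ptf1a, Rbpjl and Foxa2 kept these directions and calls on the percentile scale in both genotypes.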

How the data were processed

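Log2 values relative to the 75th percentile were computed from Agilent processed signals, in fluorescence intensity units, that the authors deposited; per the file headers they were made with Agilent Feature Extraction 10.7.3.1. The flag columns, another unit (other: 0 or 1 for each spot), were deposited beside them. The authors' deposited series table holds log2 values, and how they were normalized is not given in the sources used here. Its column medians run from 6.56 to 6.94, and it was used only as an alternative. A deposited signal of 1 array comes from 1 animal, and the number of arrays limits the precision.

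Spots flagged as outliers were left out. Probes well above background on at least 3 arrays were kept, and each gene was read from its brightest kept probe, which left 17338 genes. Probes were named through RefSeq (27235 probes by 1 symbol, 28446 unnamed). Log2 signal minus the array's 75th percentile, and minus the mean of the 31 members, were fitted with limma 3.58.1 in R 4.3.3 (the data.table package, version 1.17.8, and figures with Python 3.11.15, pandas 2.3.3, numpy 2.4.6 and matplotlib 3.10.9) by lmFit and eBayes on 4 group means over 15 arrays, with Benjamini-Hochberg adjustment over all genes in each of 5 comparisons and a threshold of 0.05. Residual degrees of freedom were 11, and prior ones 3.54 and 1.85 on the 2 scales. Tests were two-sided. Errors of differences are standard errors, and of group means standard deviations. The labels number the animals separately.

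Genes given in full are the members called in any comparison and the 2 highest and 2 lowest members relative to the member mean in each cerulein comparison. The members and lists were chosen with earlier results of these data known. Slide (of 3, read from the headers) was tried as a block. The scanner files hold median signals, so normexp used those with an offset of 50. The values of 1 gene of the other lists are not reported here.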

Additional observations from a re-analysis of the deposited data

Results flagged for a closer look

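In groups of 4 arrays, 11 of 192 sets of values (31 members and Amy2a4 in 3 groups on 2 scales) held an array whose distance from its nearest neighbour, as a share of the range, passed Dixon's critical value for 4 samples. Chance alone flags about 1 in 20, here 9.6. The sets are not independent, since the genes share arrays.

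TG cerulein replicate 16, an array on slide 2, was lowest for Ctrb1 (9.83 over the percentile, next 10.52), Pnliprp1 (1.15 relative to the member mean, next 1.30) and Gp2 (0.75, next 0.94), and highest for Pdia2 (0.65, next 0.32). WT cerulein replicate 10, the only WT cerulein array on slide 3, was highest relative to the member mean for Try5 (1.29, next 0.99), Cpa1 (1.22, next 1.01) and Cpb1 (1.37, next 1.11). WT saline replicate 5, the only WT saline array on slide 1, was lowest for Serpini2 (7.97 over the percentile, next 8.73) and highest relative to the member mean for Pla2g1b (-0.92, next -1.41) and Try4 (0.98, next 0.80). WT saline replicate 6 was highest for Prss2 (1.25 relative to the member mean, next 1.17). The part of the slide in these values was not tested.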

How the results depend on the processing

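The counts of called members and the differences of the 6 members given in full were recomputed with slide as a block, other background correction, normalization and filters, the series table, without slide 2 and without each array in turn, and, chosen after seeing the data, with no scaling between arrays and with the dimmer members as the centre. Relative to the percentile, 2 members were called in WT mice; the count was 1 with slide as a block, 5 with normexp, with the filter on all arrays and with the series table, 0 without slide 2, 1 with no scaling, and 1 to 29 with 1 array left out (29 without cerulein replicate 10, 10 without saline replicate 5, 5 and 4 without TG cerulein replicates 15 and 16, and 1 without any of the other 6 WT arrays). In TG mice it was 0, and 8 with slide as a block, 1 with normexp, 1 with quantile normalization and 1 with no scaling (Klk1, higher). Relative to the member mean, the count in TG mice was 0, and 1 with normexp (Erp27), quantile normalization (Rnase1), the filter on all arrays (Klk1), the median as centre (Klk1) and the dimmer members as centre (Rnase1), and 0 to 1 with 1 array left out (Klk1). In TG against WT mice after cerulein it was 0, and 0 to 1 with 1 array left out (Serpini2). Shares of all genes called are given above for some of these fits only, so the other counts are not set against all genes. Some values changed sign relative to the member mean. Tff2 in TG mice ran from -0.204 to 0.0299 with 1 array left out (above 0 without saline replicate 4 or cerulein replicate 13). Dnase1 went from 0.64 in TG and 0.84 in WT mice to -0.00082 and -0.0444 with quantile normalization. Amy2a5 in WT mice was 0.0104 with slide as a block, 0.0067 with normexp, 0.0484 with quantile normalization and 0.0571 with slide as a block and the dimmer centre. Cela3b in WT mice was 0.0055, 0.0842 and 0.0522 with slide, quantile, and slide with the dimmer centre. Rnase1 in WT mice relative to the percentile was called in 23 of 24 other settings, the exception being without slide 2 (-0.91). Fits that leave out a TG array are counted here, though they cannot change a WT difference. The marker, translocon, transcription factor and further secretory lists were refitted only with slide as a block. The causes were not tested. No paired analysis was possible because the groups share no replicate numbers.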
